A study of Mus musculus with 3 samples.

Results

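The cytosolic ribosomal protein genes were followed through 3 single-cell libraries of mouse bladder urothelium, the epithelium that lines the bladder. Members were taken by symbol alone: those that start with Rpl or Rps and a digit, Rplp0, Rplp1, Rplp2 and Rpsa, without symbols that hold -ps. The rule found 96 of the 31053 genes of the deposited matrices. Of these, 77 encode proteins of the ribosome itself (46 of the large and 31 of the small subunit, called the core below), 8 are paralogs or other copies, and 11 match by name only (10 ribosomal S6 kinase genes and Rps19bp1). Another 9 symbols that hold -ps, a mark of pseudogenes, were set apart. The 3 groups were wild type, Lpar6 knockout and Cab39l knockout, with 1 droplet-based 3′ library each. Every library was made from the combined cells of 15 mice, freed from the bladder with trypsin, strained and cleared of red blood cells on a Ficoll gradient. The labels give no strain, age or sex, nor the deleted stretch of Lpar6 or Cab39l. Animals cannot be told apart, so each value describes 1 library, no test was made, and every difference below lacks a replicate check.

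Each ribosome joins a small subunit, which reads the messenger RNA, to a large subunit, which forms the peptide bonds. Their proteins are made in step, and most of their messenger RNAs begin with a cytosine and a run of pyrimidines (the 5′ terminal oligopyrimidine motif), through which the mTOR pathway sets how much of them is translated. Bladder epithelium renews from basal cells that carry keratin 5 towards superficial umbrella cells that are rich in uroplakins.

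The start of the transcript is shown for 6 members, because they were among the 6 furthest above (Rps21, Rpl9 and Rps4x) or below (Rpl12, Rpl31 and Rpl4) the common shift of the core in both knockout libraries. The windows are from RefSeq on GRCm38.p6, run 5′ to 3′ on the gene's strand, and hold 15 bases on each side of the annotated start. Capitals mark stretches that belong to a pyrimidine run, searched on the gene's own strand as C followed by at least 4 bases that are each C or T.
Rps21: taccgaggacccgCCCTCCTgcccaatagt
Rpl9: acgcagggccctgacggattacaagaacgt
Rps4x: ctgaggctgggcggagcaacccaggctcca
Rpl12: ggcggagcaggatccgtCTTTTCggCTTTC
Rpl31: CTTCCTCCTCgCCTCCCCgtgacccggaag
Rpl4: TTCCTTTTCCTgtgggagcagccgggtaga
They lie at chr2:180257364-180257393 (Rps21, plus strand), chr5:65391417-65391446 (Rpl9, minus), chrX:102189377-102189406 (Rps4x, minus), chr2:32961697-32961726 (Rpl12, plus), chr1:39367836-39367865 (Rpl31, plus) and chr9:64173372-64173401 (Rpl4, plus). All 6 windows span the annotated first base of the transcript, so each covers promoter and first exon. RefSeq promoter entries matched 74 of the 96 members, among them 57 core genes with 67 annotated starts. A pyrimidine run lay within 25 bases of the start in 76.1% of the core starts and 53.0% of all 32851 starts in the table. Counted within 5 bases of the start, the shares were 43.3% and 18.3%. In the window from 250 bases before to 50 after the start, on either strand, the ETS motif CCGGAAG was found in 37.3% of core starts against 8.86% of all starts, the YY1 motif AAGATGGC in 10.4% against 2.75%, the GC box GGGCGG in 61.2% against 35.7%, and TATAAA in 8.96% against 13.6%. Among the 6 windows shown, runs stood on both sides of the common shift: Rps21, Rpl12, Rpl31 and Rpl4 hold one, and Rpl9 and Rps4x do not. Rpl34, also among the 6 furthest above in both libraries, is not shown, and its window holds a run. An absent run says only that these letters are not in this window.

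Urothelial cells were barcodes with at least 5000 unique molecular identifiers (UMIs, counts of distinct captured molecules), at most 20% of them from mitochondrial genes (mt-), and at least 0.2% from Upk1a, Upk1b, Upk2 and Upk3a. This left 3176 wild-type, 4834 Lpar6 knockout and 5466 Cab39l knockout cells, which held 78491895, 128620816 and 159977320 UMIs. Their median depths were 22252.5, 26994 and 29960.5 UMIs, and their median mitochondrial shares were 9.02, 6.27 and 6.17%, so the wild-type library stood apart from both knockouts in mitochondrial share. Lpar6 gave 0 UMIs in the urothelial cells of its knockout, which allows up to 0.0233 CPM (UMIs of a gene scaled to a total of 1000000), against 13.8 CPM in wild type. Cab39l stood at 31.7 CPM in its knockout, 94.0 CPM in the Lpar6 library and 112 CPM in wild type. A 3′ tag tests a deletion only where it touches the 3′ end. Between pairs of libraries 16 to 19 barcodes were shared, of which 3 to 8 were urothelial in both. Leukocyte markers (5 genes) summed to 1.21 to 16.2 CPM in urothelial cells, and 15, 1 and 8 of these cells carried at least 0.1% of leukocyte marker UMIs. Haemoglobin genes summed to 308, 149 and 66.2 CPM, fibroblast genes to 3.72, 1.58 and 0.388 CPM and secretory gland genes to 10.7, 2.42 and 274.9 CPM in urothelial cells, and their part in the results was not tested. No doublet caller was run.

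All 77 core genes were detected in the urothelial cells of every library. In wild type their levels ran from 232 to 7644 CPM. CPM here counts 3′ tags and is not divided by transcript length, so an order between genes is an order of tags. The most tags came from Rpl13 (7644 CPM), Rpl32 (6618), Rpl23 (6588), Rplp1 (6219.9) and Rpl27a (5538). Rplp1 is an acidic protein of the stalk that recruits translation factors. The fewest came from Rpl36a (1228 CPM), Rpl31 (1210.1), Rpl7a (1110.5), Rpl27 (313) and Rpl13a (232). Rpl13 was at 9068 CPM in Lpar6 knockout cells and 8666 CPM in Cab39l knockout cells, and Rpl13a at 244 and 259 CPM. The most tags in both knockout libraries came from Rplp1, at 9166 and 9034 CPM, and the fewest again from Rpl13a. The 77 genes lie on 19 chromosomes, 14 of them on chromosome 7, and their annotated transcripts have a median length of 774 nucleotides.

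Together the core genes gave 24.8% of urothelial UMIs in wild type, 32.8% in Lpar6 knockout cells and 32.8% in Cab39l knockout cells. The large subunit held 14.3, 18.5 and 18.6% and the small subunit 10.6, 14.3 and 14.2%, so both subunits took a smaller part in the wild-type library. Per cell, the median share was 24.4% in wild type, with 5% of cells under 10.4%. The medians of the knockout libraries were 32.7 and 32.8%, with 5% of cells under 23.3 and 24.3%. The upper ends lay closer, since 5% of cells were over 33.5% in wild type and over 38.0 and 37.7% in the Lpar6 and Cab39l knockouts. The wild-type library therefore differed most in its low tail.

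Cells with over 10% mitochondrial UMIs had a lower ribosomal protein share in every library. Among cells with 10 to 20% mitochondrial UMIs the core held 17.9% of UMIs in wild type, 25.6% in Lpar6 knockout cells and 27.6% in Cab39l knockout cells. At 5 to 10% it held 27.8, 33.3 and 33.3%. Under 5%, in 167, 304 and 567 cells, it held 31.3, 33.0 and 33.8%, so wild type was nearest to the knockouts there. Barcodes that passed the other 2 limits but had over 20% mitochondrial UMIs, numbering 1432, 627 and 814, held 6.31, 11.7 and 15.0%. With mitochondrial genes left out of the total, the core held 27.3, 35.1 and 35.2% over all urothelial cells. Depth moved with the share as well: from cells with 5000 to 10000 UMIs to cells with over 40000, the median share went from 14.9 to 28.2% in wild type, from 26.7 to 35.3% in Lpar6 knockout cells and from 30.6 to 33.5% in Cab39l knockout cells. The wild-type library was the lowest at each depth and each mitochondrial share. Mitochondrial share and depth were not varied by the study, and their part in the difference between libraries was not tested.

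**Figure D1:**
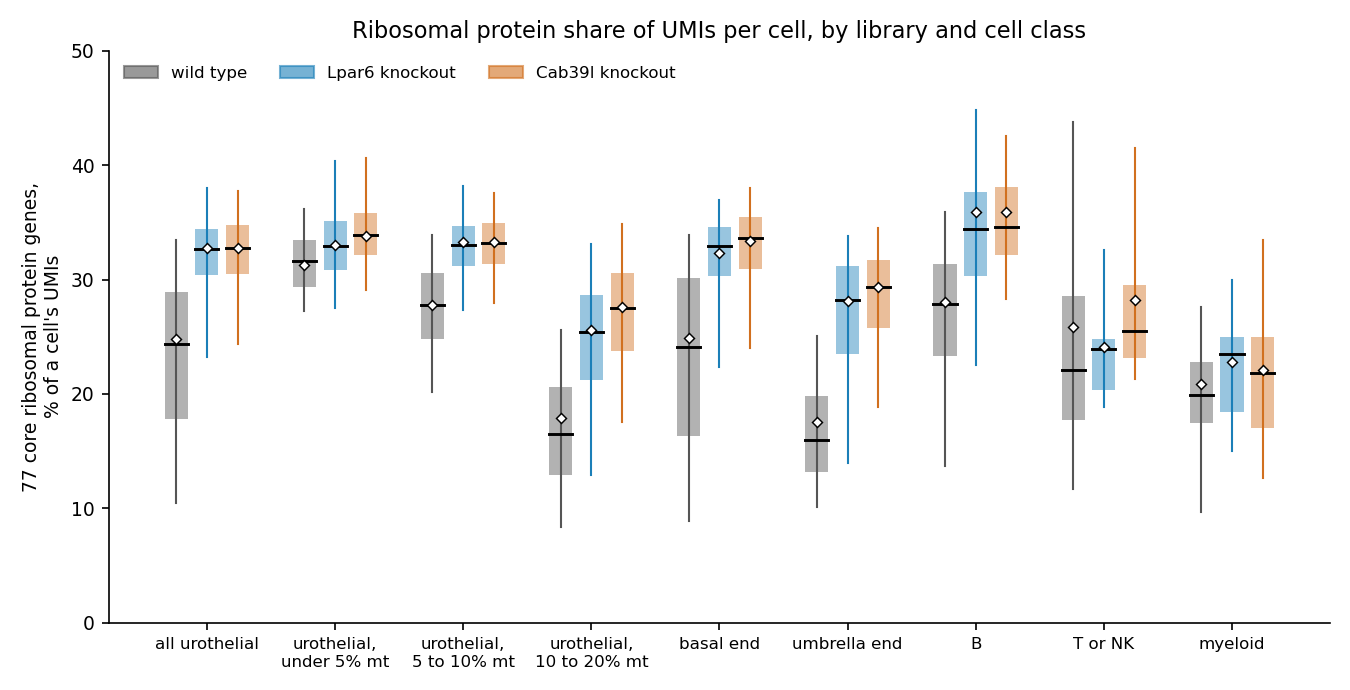
Share of a cell's UMIs from the 77 core ribosomal protein genes (y axis, %) by cell class (x axis) in the 3 libraries; boxes span the quartiles over cells, black lines are medians, whiskers run from the 5th to the 95th percentile, and diamonds are the share of the summed UMIs. All wild-type urothelial cells together lie at 24.8% and both knockout libraries at 32.8%, while in cells with under 5% mitochondrial UMIs the shares are 31.3, 33.0 and 33.8%.

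Against wild type, nearly every core gene was higher in the urothelial cells of each knockout library, and by a similar amount. The median log2 ratio of CPM was 0.41 in Lpar6 knockout cells, where 75 of 77 genes were higher, and 0.40 in Cab39l knockout cells, where 74 of 77 were higher. Over all genes with at least 50 UMIs (12926 and 13052) the medians were -0.31 and -0.28, and 24.2 and 25.2% were higher. Genes outside the core with transcripts of up to 1000 nucleotides lay between, at medians of 0.10 and 0.07. The large subunit had medians of 0.35 and 0.37 and the small subunit 0.43 and 0.44.

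At a fold of at least 1.5, 9 core genes were higher in Lpar6 knockout cells, where 1.32% of all tested genes were, and 15 in Cab39l knockout cells, where 0.766% were. None was lower by that fold in either comparison, where 25.5 and 25.6% of all genes were. After scaling by TMM (trimmed mean of M-values), which sets the middle of all genes near equal, the ratios moved up by 0.42 and 0.41, and 66 and 68 core genes were at least 1.5-fold higher, against 10.6 and 9.79% of all genes. None was lower, against 3.78 and 4.31% of all genes. So the size of the common shift depends on the scale, while its direction was the same on both. Both comparisons share the wild-type library, and their likeness is not a second observation. Set against each other without it, the knockout libraries had a core median of 0.0031, with 39 genes higher in Lpar6 knockout cells and 38 lower. None of the 77 was 1.5-fold apart, where 0.936% of 13145 genes were higher and 1.03% lower.

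Limiting all libraries to cells with 5 to 10% mitochondrial UMIs brought the medians to 0.27 and 0.27. There, 1 core gene (Rps21) was at least 1.5-fold higher in Lpar6 knockout cells and 2 (Rps21 and Rpl39) in Cab39l knockout cells, beside 0.853 and 0.317% of all genes. In cells with under 5%, the medians were 0.09 and 0.09, 0 and 2 core genes (Rpl39 and Rpl27) were that much higher, and 2.93 and 2.69% of all genes were. Against wild type, core genes thus differed least where mitochondrial shares were lowest. Between the knockout libraries the core medians were 0.0035 at 5 to 10% and -0.035 under 5%.

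**Figure D2:**
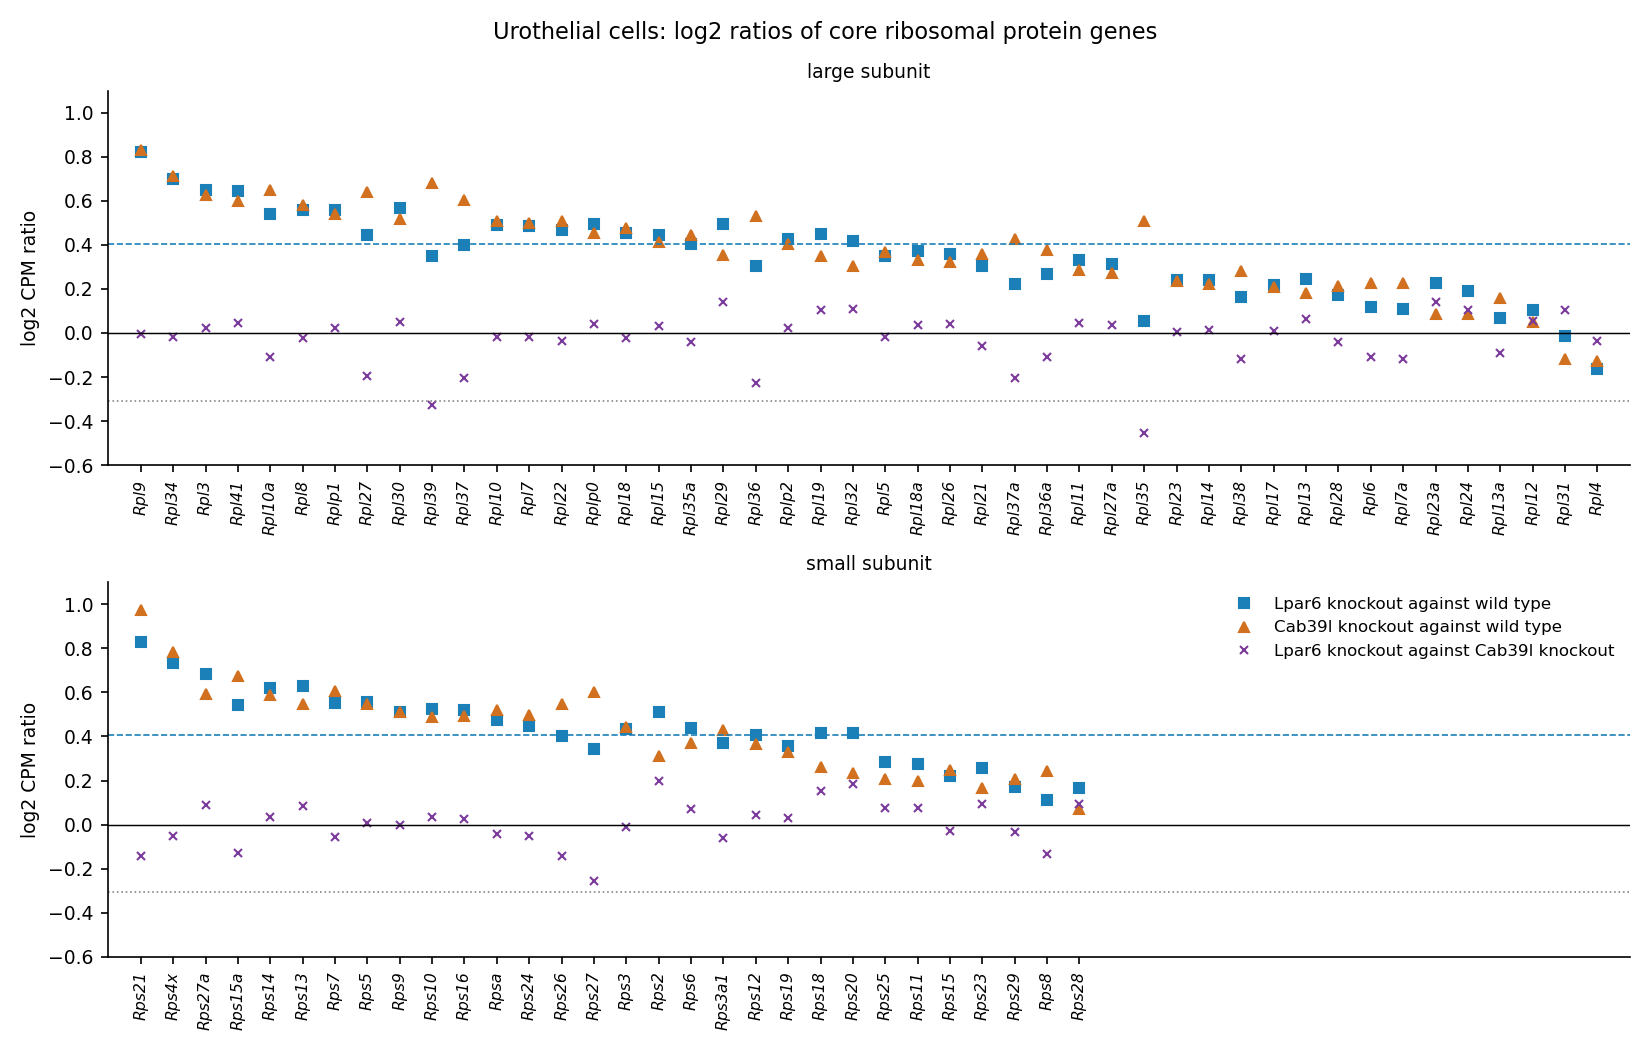
Log2 ratio of urothelial CPM (y axis) for core genes of the large (top) and small (bottom) subunit, ordered by the sum of both knockout ratios against wild type; squares and triangles are the 2 knockouts against wild type, crosses are the Lpar6 against the Cab39l knockout, the dashed line is the core median of the Lpar6 knockout (0.41) and the dotted line the median of all its tested genes (-0.31). Most squares and triangles lie between 0 and 0.8 and most crosses near 0, with Rpl35 (-0.45) and Rpl39 (-0.33) the lowest crosses.

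Single members lay off the common shift, taken as a log2 ratio at least 0.32 from the core median. There were 8 in Lpar6 knockout cells (3 above and 5 below) and 8 in Cab39l knockout cells (3 above and 5 below), while 44.9 and 45.8% of all genes lay as far from the all-gene medians (-0.31 and -0.28). Here and below, such shares of all genes are counted from the median of all genes in the same comparison, and members from the core median. Rps21, Rpl9 and Rps4x were above in both, Rpl4 and Rpl31 were among those below in both, Rpl35 and Rpl13a below in the Lpar6 and Rpl12 and Rps28 below in the Cab39l comparison. Nearest to the limit were Rps4x (0.33) and Rpl13a (-0.34) beyond it and Rpl12 (-0.30) and Rpl34 (0.29) short of it in the Lpar6 comparison, and Rps28 (-0.33) beyond it and Rpl34 (0.31) and Rpl23a (-0.31) short of it in the other. Intervals given with levels are exact 95% Poisson intervals and cover counting error only. Over all urothelial cells, the wild-type levels of Rps21, Rpl9, Rps4x, Rpl4, Rpl31 and Rpl12 rest on at least 94983 UMIs each.

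Rps21 (chromosome 2, 180257377-180258445, plus strand in GENCODE vM21 on GRCm38), a small protein of the small subunit, stood furthest above. It was at 2411 CPM (95% interval 2400.5 to 2422) in wild-type cells, 4283 CPM (4272 to 4295) in Lpar6 knockout cells and 4731 CPM (4720.0 to 4741) in Cab39l knockout cells. All 3 intervals are apart, with the Cab39l knockout the highest. Its log2 ratios against wild type were 0.83 and 0.97, which is 0.42 and 0.57 above the core medians. As a part of all core UMIs it went from 0.971% to 1.31 and 1.44%.

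Rpl9 (chromosome 5, 65388364-65391444, minus strand), a large subunit protein near the base of the stalk, was at 2899.5 CPM (2888 to 2911) in wild-type cells, 5126 CPM (5114 to 5139) in Lpar6 knockout cells and 5149 CPM (5137 to 5159.6) in Cab39l knockout cells. Wild type was low and the knockout libraries were near equal. The log2 ratios were 0.82 and 0.83, and the ratio between the knockouts was -0.01. Its part of the core was 1.17, 1.56 and 1.57%. Its 3′ end has exact copies in other annotated genes, so its level is uncertain. Rps4x (chromosome X, 102184941-102189394, minus strand), the X-linked form of a small subunit protein, showed the same order, at 2912 CPM (2899.7 to 2924), 4841 CPM (4829 to 4853) and 5012 CPM (5001 to 5023), with log2 ratios of 0.73 and 0.78. Rpl34, of the large subunit, was at 2183 CPM (2173 to 2194), 3541 CPM (3531 to 3552) and 3583 CPM (3573 to 3592). For these 3 genes wild type was below both knockouts by more than 1.5-fold.

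Next in the order above the median were, in Lpar6 knockout cells, Rps27a (0.68), whose product carries ubiquitin at its front end, and Rpl3 (0.65), which reaches towards the peptidyl transferase centre. Rps27a was at 4343, 6973 and 6548 CPM and Rpl3 at 2564, 4019 and 3959 CPM in wild type, Lpar6 and Cab39l knockout. In the Cab39l knockout they were Rpl39 (0.68), which lines the exit tunnel for the new peptide, and Rps15a (0.67). Rps15a was at 2435, 3548 and 3880.4 CPM.

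Rpl4 (chromosome 9, 64173375-64178666, plus strand), whose loop also lines the exit tunnel, stood furthest below in Lpar6 knockout cells. It was at 1511 CPM (1503 to 1520.0) in wild-type cells, 1349 CPM (1342 to 1355) in Lpar6 knockout cells and 1382 CPM (1376 to 1388) in Cab39l knockout cells. With Rpl31 it was 1 of 2 core genes whose level was lower than wild type in both, with log2 ratios of -0.16 and -0.13, which is 0.57 and 0.53 below the core medians.

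Rpl31 (chromosome 1, 39367842-39371911, plus strand), which sits at the rim of the exit tunnel, was at 1210.1 CPM (1202 to 1218) in wild-type cells, 1197 CPM (1191 to 1203) in Lpar6 knockout cells and 1114 CPM (1109 to 1119) in Cab39l knockout cells. Wild type and the Lpar6 knockout overlapped at the edges of their intervals, and the Cab39l knockout was lower. Rpl12, of the stalk base, was at 3509.9 CPM (3497 to 3523), 3774 CPM (3764 to 3785) and 3638 CPM (3629 to 3648), which made it higher in both knockouts but by only 0.10 and 0.05 on the log2 scale. Rpl13a and Rpl35 had log2 ratios of 0.07 and 0.05 in Lpar6 knockout cells, and Rpl23a and Rps28 had 0.09 and 0.07 in Cab39l knockout cells. Of all core UMIs, Rpl4 held 0.609% in wild type and 0.412 and 0.422% in the knockouts, and Rpl31 0.487% against 0.365 and 0.340%.

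Within the wild-type library, core genes were lower in cells with a high mitochondrial share, by amounts that differed between genes. Between its cells with over and under 10% mitochondrial UMIs the core median was -0.65 on the log2 scale, all 77 genes were lower in the former, and 46 were at least 1.5-fold lower, beside 2.39% of all genes. The same split gave medians of -0.38 for the Lpar6 and -0.28 for the Cab39l knockout, with 1 and 0 genes that much lower, beside 0.624 and 0.257% of all genes. In wild type 19 core genes (24.7%) lay at least 0.32 (log2) off the core median, while 34.7% of all genes lay as far from their own median (0.28). In the knockouts 0 and 0 core genes did, while 32.9 and 28.4% of all genes lay as far from theirs.

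Rpl9 was the gene furthest below that median in wild type, at -0.83 from it, and Rps4x was next, at -0.52. In wild type Rpl9 was at 5159 CPM in cells with under 5% mitochondrial UMIs, 3520.0 CPM at 5 to 10% and 1305 CPM at 10 to 20%. In the Lpar6 knockout it was at 5294, 5223 and 3722 CPM and in Cab39l knockout cells at 5444, 5249 and 3969.8 CPM. The libraries were close for cells with few mitochondrial UMIs and wide apart for cells with many. Rps4x went the same way, from 4643 to 3449 and 1569 CPM in wild type against 4998, 4914 and 3743 CPM in Lpar6 knockout cells.

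For Rps21 the libraries also came closer, but not as close as for Rpl9. At 10 to 20% it was at 1767, 3706 and 4234 CPM in wild type, Lpar6 and Cab39l knockout cells. In cells with under 5% mitochondrial UMIs it was at 3345 CPM in wild type, 4223 CPM in Lpar6 knockout cells and 4818 CPM in Cab39l knockout cells, and its log2 ratios there were 0.34 and 0.53. Rpl34 likewise came closer but stayed apart, from 1416, 2610 and 2882 CPM at 10 to 20% to 2879.8, 3601 and 3719 CPM under 5%. Wild type was the lowest for both genes in each of the 3 bins of mitochondrial share.

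Rpl31 and Rpl4 were among the genes furthest above the median in the wild-type split, and were nearly level over it. Rpl31 was at 1114 (from 4638 UMIs), 1223 and 1199.8 CPM in wild type from the lowest to the highest mitochondrial share, and Rpl4 at 1561, 1574 and 1380.4 CPM. In cells with under 5% the log2 ratios of Rpl31 were 0.11 and 0.00, whereas those of Rpl4 were -0.26 and -0.14. Relative to the core medians of those cells, Rpl9 was at -0.05 and -0.01, Rps4x at 0.02 and 0.13 and Rpl31 at 0.03 and -0.08, whereas Rps21 was at 0.25 and 0.44, Rpl34 at 0.23 and 0.28, Rpl12 at -0.27 and -0.27 and Rpl4 at -0.34 and -0.23. With 5 to 10% mitochondrial UMIs, 4 (Rps21 above, Rpl4, Rpl35 and Rpl13a below) and 5 core genes (among them Rps21 and Rpl39 above, Rpl4 and Rpl31 below) were off the core median by the same limit, while 34.3 and 35.6% of all genes were as far from their own medians (-0.24 and -0.22).

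**Figure D3:**
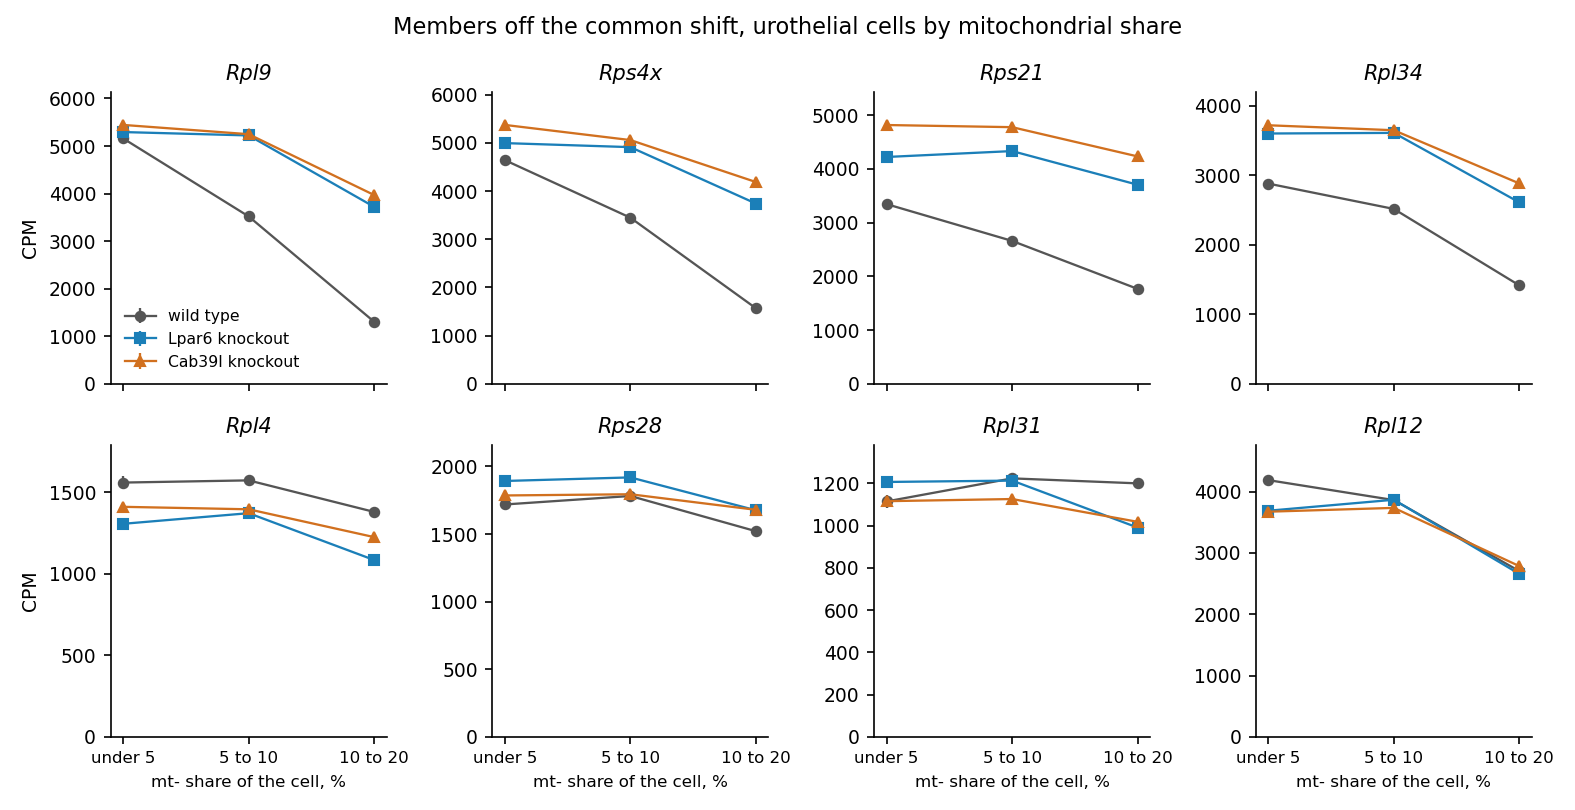
Urothelial CPM (y axis, from 0) of 4 members with ratios above (top) and 4 below (bottom) the core median. Cells had under 5, 5 to 10 and 10 to 20% mitochondrial UMIs (x axis). Points are summed UMIs of each library and bars, mostly hidden by the points, are exact 95% Poisson intervals. Rpl34 is short of the limit for the common shift in both comparisons, and Rpl12 and Rps28 pass it in the Cab39l comparison only. Wild-type Rpl9 goes from 5159 to 1305 CPM across the bins, while wild-type Rpl31 stays between 1114 and 1223 CPM.

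Between the knockout libraries, 2 core genes lay at least 0.32 (log2) off the core median, Rpl35 and Rpl39, while 7.05% of all genes lay as far from their own median, which was also near 0. Rpl35 (chromosome 2, 39001580-39005624, minus strand), at the mouth of the exit tunnel, was at 1295 CPM (1287 to 1303) in wild-type cells, 1345 CPM (1339 to 1351) in Lpar6 knockout cells and 1842 CPM (1836 to 1849) in Cab39l knockout cells. Rpl39 (chromosome X, 37082520-37085402, minus strand) was at 2614 CPM (2603 to 2625), 3334 CPM (3324 to 3344) and 4184 CPM (4174 to 4194). Both were highest in Cab39l knockout cells, with log2 ratios of the Lpar6 to the Cab39l knockout of -0.45 and -0.33. The same ratios in cells with under 5% mitochondrial UMIs were -0.50 and -0.40. Rps27 (-0.26), Rpl36 (-0.23), Rpl37a (-0.21) and Rpl37 (-0.20) followed in that direction, and Rps2 (0.20) and Rps20 (0.18) led the other, all named after their values were seen.

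The name rule does not reach every gene of a ribosomal protein. Fau, which encodes a ubiquitin-like protein fused to a small subunit protein, was at 4351, 6892 and 6722 CPM, with log2 ratios of 0.66 and 0.63. Rack1, a signalling scaffold on the small subunit, was at 1967, 2138 and 2271 CPM, with log2 ratios of 0.12 and 0.21.

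Along the epithelium, the 10% of urothelial cells richest in Krt5 and Trp63 (basal end) were set against the 10% richest in Krt20 and Upk2 (umbrella end). These ends are ranges of a marker share and not cell types, Upk2 is also part of the urothelial limit, and 445 to 1032 cells per library lay within 20% of the umbrella cut. The core held 24.9% of UMIs at the basal and 17.5% at the umbrella end in wild type, 32.3 and 28.1% in Lpar6 knockout cells, and 33.4 and 29.4% in Cab39l knockout cells. The umbrella end was lower in 3 of 3 libraries. Its median mitochondrial shares were higher as well, at 13.7, 8.36 and 8.13% against 8.54, 6.10 and 5.82% at the basal end. With both ends limited to 5 to 10% mitochondrial UMIs, which left 43 umbrella-end cells in wild type, the basal end held 28.1, 33.1 and 33.9% and the umbrella end 22.1, 30.1 and 30.7%.

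At the level of genes, the umbrella end had a core median log2 of -0.52 against the basal end in wild type, -0.20 for the Lpar6 and -0.18 for the Cab39l knockout. In wild type 34 core genes were at least 1.5-fold lower at the umbrella end, beside 4.9% of all genes, and in the knockouts 0 and 0 were, beside 2.39 and 3.22%. Rpl9 had the lowest ratio, -1.74 in wild type, against -0.26 and -0.27 in the knockouts. Rpl31 was 1 of 3 core genes not lower in wild type, at 0.16. Rps6, the substrate of the S6 kinases, was at -0.24, 0.01 and 0.05.

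Immune cells were non-urothelial barcodes with at least 1000 UMIs, at most 20% mitochondrial UMIs and under 0.5% uroplakin UMIs. They also had at least 3 UMIs and 0.1% from 5 leukocyte markers. They numbered 695, 79 and 339 in the wild-type, Lpar6 and Cab39l libraries, with median depths of 3048, 2387 and 2932 UMIs, far below the urothelial cells. Uroplakins made up 0.101, 0.177 and 0.125% of their UMIs against 0.841, 1.07 and 1.03% in urothelial cells, and the part of urothelial RNA in the values below was not tested. Leukocyte markers summed to 5903, 4529 and 6386 CPM in the immune cells. Cd52 alone gave 2994, 2147 and 5122 CPM of this, with the most in the Cab39l library. The other 4 markers were lowest there: Ptprc (746, 613 and 217 CPM), Coro1a (1207, 788 and 427), Laptm5 (540, 553 and 352) and Rac2 (417, 428 and 267). The core held 22.7, 28.2 and 26.3% of immune UMIs. B-like cells (162, 25 and 105), named like the other classes from a short marker list (Cd79a, Cd79b and Ms4a1 among them), held 28.1, 35.9 and 35.9%, which was the most among the named classes in each library. T- or NK-like cells (213, 12 and 26) held 25.9, 24.1 and 28.2%, and myeloid-like cells (203, 27 and 50) held 20.9, 22.8 and 22.1%. Neutrophil-like cells were 46 in wild type, with 9.12%, and 0 of 79 and 0 of 339 in the knockouts, which allows shares of up to 3.80 and 0.885% of immune cells. By these summed shares wild type was low in B-like cells as in urothelial cells, but not below the Lpar6 knockout in T- or NK-like cells. Per cell, the median share was lowest in wild type in each class found in all 3 libraries. It was 27.8, 34.4 and 34.6% in B-like, 22.1, 23.9 and 25.5% in T- or NK-like and 19.9, 23.5 and 21.8% in myeloid-like cells.

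Over all immune cells the core median log2 against wild type was 0.31 in Lpar6 knockout cells, with 4 genes at least 1.5-fold higher beside 7.63% of all genes, and 0.18 in Cab39l knockout cells, with 7 beside 7.25%. These shares of all genes take in genes with few immune UMIs, whose ratios carry more counting error than those of the core. The immune sums mix classes in unequal parts, and 158 of the 339 Cab39l barcodes reached no class. Rpl9 was at 3208, 3900.4 and 3471 CPM, so it followed the core there (0.03 and 0.06 below the medians). Rps21, at 2293, 3071 and 3515 CPM, was 0.11 and 0.44 above them. Rps4x was at 3656, 4646 and 4133 CPM.

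Compared with the urothelial cells of the same library, immune cells had core medians of -0.13, -0.17 and -0.30. Members at least 0.32 (log2) off these medians numbered 21 in wild type, 11 in Lpar6 knockout cells and 9 in Cab39l knockout cells. Of all genes, 72.6, 81.6 and 68.6% lay as far from their own medians (-0.08, -0.13 and -0.01). Those shares take in genes with few immune UMIs, whose ratios carry more counting error than those of the core. No such share was counted for genes at the level of the core. Genes outside the core with at least 100 CPM in urothelial cells were less spread than all genes. By standard deviation they were still more spread than the core in each library. Relative to the median, Rps24 was high in immune cells of all 3 libraries (0.49, 0.40 and 0.34), and Rpl31 (-0.75, -0.42 and -0.33), Rpl14 (-0.59, -0.47 and -0.35) and Rps6 (-0.41, -0.61 and -0.56) were low in all 3. Rps6 was at 3241, 4394 and 4187 CPM in urothelial and 2239, 2559.9 and 2312 CPM in immune cells. Rpl10, which joins the large subunit last, was relatively high in wild type (0.59) and the Cab39l knockout (0.52), less so in Lpar6 knockout cells (0.13). Rps15a (0.52, 0.37 and 0.16) and Rps9 (0.61, 0.24 and 0.12) were high by unequal amounts, and Rpl36 (-0.67, -0.26 and -0.31) and Rpl28 (-0.60, -0.38 and -0.31) low. The immune sums mix classes, which differed in parts of core UMIs (wild type, Lpar6 and Cab39l knockout in order). Rpl10 held 0.835, 0.762 and 0.802% in B-like cells and 2.01, 1.33 and 1.88% in barcodes of the immune set without a class. Rps24 held 3.17, 2.74 and 3.09% in the former and 1.83, 2.14 and 1.81% in the latter. Rps9 held 2.48, 1.84 and 1.76% in myeloid-like cells and 1.35, 1.19 and 1.23% without a class. The part of the class mix in these values was not tested.

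Rps26 (chromosome 10, 128624534-128626747, minus strand), a protein at the channel where messenger RNA leaves the small subunit, had the highest mean over libraries, at 0.28, 0.23 and 0.96. Its immune level was 2169.6, 2673 and 4487 CPM. The immune barcodes that reached no class (71, 15 and 158) had the highest levels: 5002 CPM (4774 to 5237) in wild-type cells, 5665 CPM (4841 to 6589.6) in Lpar6 knockout cells and 7399 CPM (7188 to 7615) in Cab39l knockout cells. In B-like cells it was at 2025, 3069 and 2966 CPM, and in myeloid-like cells at 1743, 1734 and 2066 CPM. So Rps26 was over 1.5-fold higher in the unclassed cells than in these classes in each library, and the Cab39l library held more such cells. These cells had few class markers by construction, and no type is given to them. Markers of secretory glands (Sbp, Pbsn, Spink1, Svs4) summed to 83.6, 7.57 and 419 CPM over all immune cells. Haemoglobin genes summed to 4188, 75.7 and 1568 CPM in the same cells. The part of either in the Rps26 level and the other immune values was not tested.

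Rpl39 and Rpl35, which set the Cab39l library apart in urothelial cells, were compared by immune class. Rpl39 was at 3200, 4501 and 5554 CPM in B-like cells, and at 2153, 2596 and 3105 CPM in myeloid-like cells. Rpl35 was at 1408, 1768 and 1872 CPM in B-like cells, where both knockout intervals (1515 to 2051 and 1750 to 2001 CPM) overlapped. In myeloid-like cells it was at 973, 926 and 1219.8 CPM, with Lpar6 (755 to 1126) and Cab39l (1113 to 1334) intervals that overlapped at their edges. The Cab39l library was thus the highest for Rpl39 with intervals apart from wild type in both classes, and less clearly so for Rpl35.

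**Figure D4:**
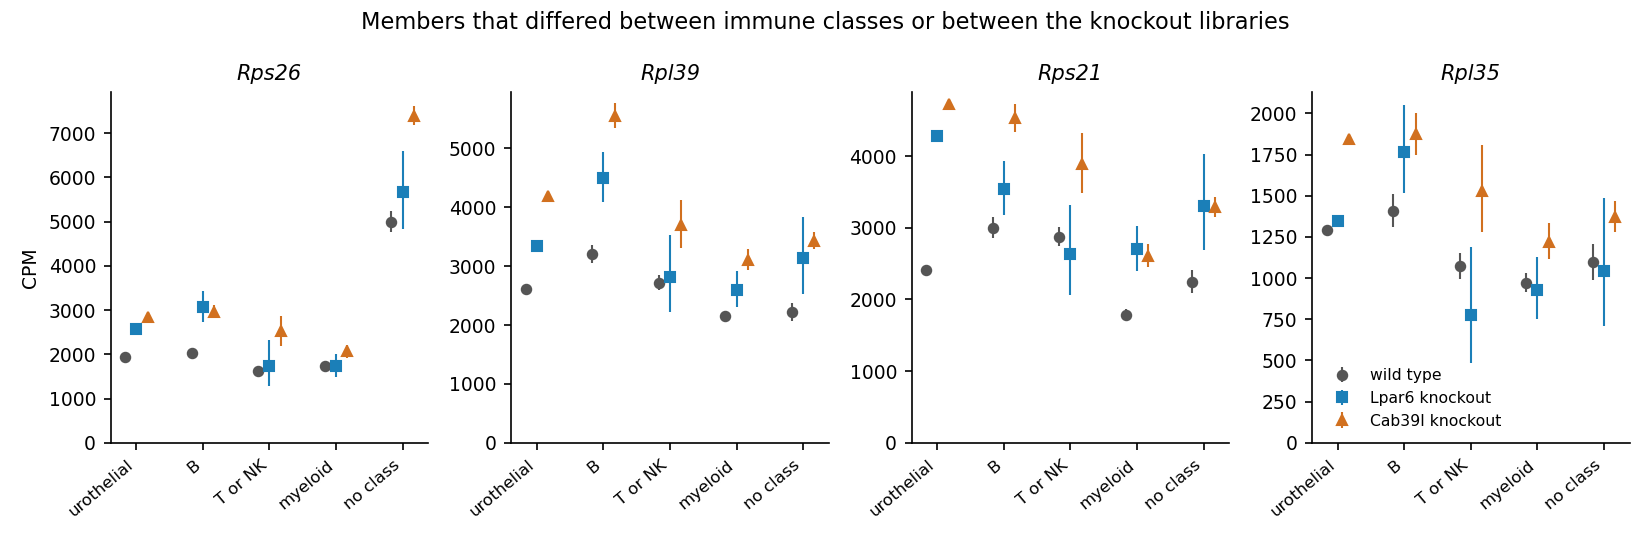
CPM (y axis, from 0) of 4 core genes in urothelial cells and in B-like, T- or NK-like, myeloid-like and unclassed immune cells (x axis) of the 3 libraries; points are summed UMIs and bars exact 95% Poisson intervals. Rps26 is highest in the unclassed barcodes of every library (5002, 5665 and 7399 CPM), and Rpl39 is highest in Cab39l knockout cells in each class. The unclassed barcodes count as immune by the leukocyte markers alone.

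Paralogs were far less abundant than the core. Rpl10l, Rpl39l and Rpl3l, which are known from testis, gametes or muscle, had under 50 UMIs in the urothelial cells of all libraries together. Rpl10l had 0, which allows up to 0.0382, 0.0233 and 0.0188 CPM. Rpl22l1, a partner and substitute of Rpl22, was the most abundant, at 434 CPM (429 to 438) in wild-type cells, 610 CPM (606 to 614) in Lpar6 knockout cells and 686 CPM (682 to 690) in Cab39l knockout cells. Rps27l, a p53 target, was at 318, 415 and 372 CPM, Rpl36al at 136, 217 and 182 CPM, Rps27rt at 74.8, 103 and 93.7 CPM, and Rpl7l1 at 41.0, 44.0 and 45.6 CPM. All 5 were lowest in wild type, with a median log2 of 0.46 and 0.32 over the 5.

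The genes matched by name alone did not move with the core. Rps6kb1, the S6 kinase downstream of mTOR, was at 52.1 CPM (50.5 to 53.8) in wild-type cells, 34.5 CPM (33.5 to 35.5) in Lpar6 knockout cells and 32.8 CPM (31.9 to 33.7) in Cab39l knockout cells. Rps6ka3, a kinase of the RSK group that acts below ERK, was at 25.8, 12.3 and 14.03 CPM. Rps6ka1, of the same group, was at 23.0, 16.1 and 15.8 CPM. All 3 were highest in wild type. Rps6ka4 (14.5, 10.9 and 12.6 CPM), Rps6kb2 (7.70, 5.16 and 6.26), Rps6kc1 (3.94, 2.84 and 2.76), Rps6ka5 (2.78, 1.83 and 1.54) and Rps6ka6 (1.82, 0.809 and 0.975) had the same side, whereas Rps6ka2 was at 0.293, 0.443 and 0.238 CPM. Rps6kl1 had 2 UMIs in all, both in Cab39l knockout cells. Rps19bp1, a protein that binds Rps19, was level at 37.9, 40.7 and 38.9 CPM. Over the 10 of these 11 genes with at least 50 UMIs the medians were -0.45 and -0.45, beside -0.31 and -0.28 for all genes.

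Other parts of the translation machinery were described by the same counts. Of 34 translation factor genes, 2 were at least 1.5-fold higher and 5 lower in Lpar6 knockout cells, and 3 higher and 5 lower in Cab39l knockout cells, with medians of 0.01 and 0.15. Of all genes, 1.32 and 0.766% were that much higher and 25.5 and 25.6% lower. Eef1b2, an exchange factor for elongation, was at 1749 CPM in wild type, 2908 CPM in Lpar6 knockout cells and 2793 CPM in Cab39l knockout cells, while Eef2, which moves the ribosome along, was at 1391, 1253 and 1466 CPM. Eef1a1, which brings the loaded transfer RNA, was at 6101, 7389 and 7925 CPM, and Tpt1, whose message also starts with a pyrimidine run, at 6180.1, 6203 and 6400.2 CPM. Of 36 ribosome biogenesis genes none was 1.5-fold higher and 7 and 9 were lower (19.4 and 25% of the list, no more than among all genes), with medians of -0.17 and -0.08. Ncl (nucleolin) was at 418, 254 and 218 CPM and Npm1 (nucleophosmin) at 651, 650.3 and 626 CPM, while Nop10 (274, 371 and 372 CPM) and Polr1d (274, 348 and 344 CPM) were higher in the knockouts. Of 78 mitochondrial ribosomal protein genes, 77 and 78 had at least 50 UMIs and none was 1.5-fold apart in either direction, with medians of 0.21 and 0.18. Mrpl52 was at 319, 360 and 409 CPM, Mrps33 at 174, 187 and 178 CPM, Mrpl57 at 173, 185 and 168 CPM and Mrpl54 at 159, 195 and 177 CPM.

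Ribosomal protein genes have many processed copies in the genome, and the sources used here do not say how reads that match several genes were counted. Windows of 90 bases from the last 300 bases of each core transcript were therefore searched for exact copies in other annotated transcripts of GENCODE vM21. In 32 core genes at least 50% of the windows had a copy, in 20 some had, and in 25 none had. The median wild-type levels of the 3 sets were 2637, 3016 and 3712 CPM. Their median log2 ratios were 0.44, 0.40 and 0.35 in Lpar6 knockout cells and 0.44, 0.39 and 0.37 in Cab39l knockout cells, so the shift was present in each set. Every window of Rpl9, Rpl10, Rpl36a, Rps12 and Rps27 had a copy, as had 95.3% of those of Rpl35 and 84.8% of those of Rpl31, but 0.474% of those of Rps21 and none of those of Rpl4, Rpl12, Rpl13a and Rpl39. Levels of Rpl9, Rpl10, Rpl31, Rpl35, Rpl36a, Rps12 and Rps27 are uncertain for this reason, and so is the difference of Rpl35 between the knockout libraries. The same limit holds for other named genes with most windows copied. Among them are Rps27a (83.9%), Rpl13, Rpl27 and Rps6 (80.1% each), Rpl7a (75.4%) and Rpl3 (72.0%). Of the paralogs, searched in the same way, Rps27rt had copies in 86.3%, Rpl36al in 64.5% and Rpl22l1 in 54.5% of windows. Of the genes matched by name only, Rps6ka4 had copies in 100% and Rps6ka2 in 50.7%. A ratio between libraries holds for such genes only if reads were shared out alike in each.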

How the data were processed

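Unique molecular identifier counts per gene and barcode were used as deposited by the authors, in 1 filtered 10x matrix for each of the 3 libraries. Per the submitters' processing notes, reads were handled with Cell Ranger 3.0.2 on mm10. The sources used here do not name the release of the gene annotation. Libraries were grouped by their labels, and with 1 library per group no test was made. Barcodes were classed by depth, mitochondrial share and marker genes, and an immune barcode took the class whose list had the most UMIs, with at least 2. UMIs were summed over the cells of a class and scaled to CPM, and log2 ratios were taken of CPM + 1 for genes with at least 50 UMIs over both sums. Exact 95% Poisson intervals and limits for a count of 0 (3 counts) cover counting error only. Totals were 101977647 UMIs in 8085 wild-type, 139250807 in 8293 Lpar6 knockout and 175075246 in 9406 Cab39l knockout barcodes. Named genes are the 5 highest and lowest core members by wild-type CPM, the 6 furthest above and below the core median in each knockout comparison, the 5 highest and lowest in immune relative to urothelial cells, Rpl9, every paralog and kinase with at least 50 UMIs, Fau, Rack1 and up to 4 genes of each other list. Members, lists and limits were chosen with earlier results of these data known. Gene positions were taken from GENCODE vM21 (30934 genes, 99.6%) and start windows from RefSeq. Other depth, mitochondrial and marker limits, scalings, pseudocounts, a length trend and cell subsets were tried as alternatives; the subsets by mitochondrial share under 5% were added after the data were seen. Single genes left out of the text by name are not reported here but are kept in the counts and medians. Steps were tested on simulated data. Python 3.11.15, numpy 2.4.6, pandas 2.3.3, scipy 1.17.1, statsmodels 0.14.6 and matplotlib 3.10.9 were used.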

Additional observations from a re-analysis of the deposited data

Results flagged for a closer look

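The symbols that hold -ps, set apart from the members, gave signal above 3 UMIs in the urothelial cells of every library for 7 of 9. Rps12-ps3 was at 56.4 CPM in wild type, 61.6 CPM in the Lpar6 and 49.0 CPM in the Cab39l library. Rpl27-ps3 was at 38.0, 44.2 and 41.4 CPM in the same order, Rpl10-ps3 at 33.8, 42.7 and 35.7 CPM, and Rpl9-ps6 at 31.8, 50.6 and 30.5 CPM. Rpl36a-ps1 was at 14.4, 20.2 and 13.7 CPM, Rpl7a-ps5 at 4.28, 3.79 and 2.39 CPM, and Rpl13a-ps1 at 3.40, 2.67 and 1.78 CPM. All 7 had a higher level in the Lpar6 than in the Cab39l library, where 49.9% of all tested genes were higher. Reads of parent genes that match these copies were not told apart.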

How the results depend on the processing

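No core median or share of a comparison changed sign under the alternatives run, apart from the near-zero median between the knockouts, which went from 0.0031 to -0.0035 with TMM scaling, -0.0083 with a length trend removed, -0.0031 in cells with 10000 to 40000 UMIs and -0.035 in cells with under 5% mitochondrial UMIs. The Lpar6 knockout median against wild type (0.41) was 0.39 with a minimum of 10000 UMIs, 0.26 with at most 10% mitochondrial UMIs, 0.37 when scaled without mitochondrial genes, 0.83 with TMM, 0.47 as a mean over cells, 0.28 with the length trend removed, 0.27 in cells with 5 to 10% mitochondrial UMIs, 0.41 with 10000 to 40000 UMIs and 0.089 in cells with under 5%. The Cab39l knockout median (0.40) was 0.39, 0.25, 0.37, 0.81, 0.49, 0.32, 0.27, 0.43 and 0.085 in the same order. The 9 core genes at least 1.5-fold higher in Lpar6 knockout cells became 1 with at most 10% mitochondrial UMIs, 66 with TMM, 21 as a mean over cells and 1 with 5 to 10%; the 15 in Cab39l knockout cells became 2, 68, 27 and 2, and also 9 without mitochondrial genes and 7 without the length trend. The 8 genes off the common shift became 4 (Lpar6) and 5 (Cab39l) with at most 10% and, again, 4 and 5 with 5 to 10%. The core share (24.8, 32.8 and 32.8%) was 25.04, 32.8 and 32.8% with at least 10000 UMIs, 28.1, 33.3 and 33.3% with at most 10% mitochondrial UMIs, 27.3, 35.1 and 35.2% without mitochondrial genes, 23.2, 32.0 and 32.2% as a mean over cells, 27.8, 33.3 and 33.3% with 5 to 10%, and 24.1, 32.3 and 32.4% with 10000 to 40000 UMIs. The umbrella end minus the basal end (-7.40, -4.19 and -4.03 points) was -8.05, -4.22 and -4.15 with at least 10000 UMIs, -3.71, -2.57 and -2.95 with both ends drawn anew among cells with 5 to 10%, and -6.09, -2.58 and -2.97 for the top 20% of cells. Immune against urothelial medians (-0.13, -0.17 and -0.30) were -0.32, -0.56 and -0.53 with TMM and -0.11, -0.16 and -0.33 with an immune uroplakin share under 0.2%. The causes were not tested.

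Rps15a left its place with the length trend removed (0.83 and 0.94 above the core medians), since its annotated transcript is 5130 nucleotides long. Over all alternatives, 69 comparison values moved and 72 did not. Core shares were judged by their counting interval and counts by a change of over 1.5 times. Medians and differences between the ends were judged by a small fixed tolerance. Of the single-gene distances from the core median, 166 moved by more than their counting interval and 122 did not. The alternatives on mitochondrial share for gene counts and ends, and the set with under 5%, were chosen after seeing the data. No paired analysis was possible because each group has 1 library and no replicate number, and for the same reason no library could be left out. Depth limits the immune values: the Lpar6 knockout had 79 immune cells and 264074 immune UMIs, and the rarest core gene there had 73.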
